A study of Homo sapiens with 12 samples.

Results

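Mitochondrial ribosomal protein genes are the nuclear genes whose symbols run MRPL or MRPS and a number, for the proteins of the large and small subunit of the mitochondrial ribosome. The deposited normalized table held 76 such genes among 26231, of which 47 were named MRPL and 29 MRPS. By structure 49 of the 76 belong to the large subunit, since MRPS18A and MRPS30 sit there despite their names, and 26 to the small subunit. MRPS36 was later assigned to a dehydrogenase complex and counts in neither. A total of 71 members had enough reads to be tested (47 large, 24 small), and the remaining 5 are MRPL45, MRPL53, MRPS18B, MRPS24 and MRPS36. Those 5 had 1, 2, 1, 29 and 9 reads over all 12 libraries. MRPS18B was listed under ENSG00000223775, an ID without a position in the annotation used here. The count tables held 1 other gene ID of that symbol, which is not among the 76. The low count of MRPS18B thus holds for the listed ID only.

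Mitochondria keep a ribosome of their own, which descends from that of bacteria and makes only the few proteins that mitochondrial DNA encodes. Those proteins are core subunits of the respiratory chain and of ATP synthase, so respiration depends on this ribosome. All of its proteins are encoded in the nucleus, made in the cytosol and imported, and many have no bacterial relative. Blood cancers, leukaemia stem cells among them, often lean on respiration, and blocking mitochondrial translation is a known way to impair leukaemia cells in culture.

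The libraries came from the ALDH-positive fraction of 697 (EU3), a human B-cell precursor leukaemia line, sorted for high aldehyde dehydrogenase activity. SH2 cells carry a doxycycline-inducible shRNA against IGF2BP1, an RNA-binding protein, with a green fluorescent reporter, and were collected untreated or after doxycycline in sets 1 to 4 (n = 4 each). Treated SH2 cells were sorted again for the reporter, a step the labels do not give for untreated cells. The other cells are named in the labels only as a control for doxycycline, untreated or treated, in sets 2 and 4 (n = 2 each); a scrambled shRNA appears in the protocol, but no label ties it to these libraries. Each set was a separate sort and treatment.

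Libraries held 2210291 to 3370952 reads in genes, taken next to the poly(A) tail, so levels in CPM (read counts scaled to a common depth, with TMM factors) are not divided by gene length. Some facts bear on the comparisons below. SH2 and control cells did not share a light chain: IGKC took 99.7% to 99.9% of light chain constant-region reads in control libraries and 0% to 0.141% in SH2 libraries, so the shRNA and the cells that carry it cannot be told apart in SH2 against control. IGF2BP1 stood at 21.7, 30.5, 39.2 and 32.9 CPM in untreated and 6.28, 14.8, 25 and 16.2 CPM in treated SH2 cells of sets 1 to 4, with a log2 fold change of -0.99 ± 0.43 (SE, unadjusted p = 0.0371, edgeR adjusted p = 0.983). All 12 precursor B cell markers were above 10 CPM in at least 1 library of both SH2 groups. The 5 T cell markers summed to 370 and 396 CPM in the control libraries of set 2, to 27.8 and 11.1 CPM in those of set 4, and to 6.97 to 31.1 CPM in SH2 libraries, with CD2 and CD5 at 0 reads in the SH2 libraries. The 5 myeloid markers stayed at 19.0 CPM or less in sum, and 3 erythroid and megakaryocyte markers at 2.93 CPM or less. The treated SH2 library of set 4 had the lowest median correlation with libraries of the same cells (0.882, against 0.910 to 0.947 for the others). In bulk RNA, fewer cells of a type and less RNA per cell cannot be told apart.

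Together the 76 genes gave less RNA in SH2 than in control cells. Their summed level was 3649, 3760, 3690 and 3577 CPM in untreated SH2 cells of sets 1 to 4, and 4762 and 4136 CPM in untreated control cells of sets 2 and 4. In treated SH2 cells it was 3344, 3390, 3220 and 4316 CPM, and in treated control cells 4481 and 5114 CPM. Every SH2 library was below every control library of the same treatment, but the treated SH2 library of set 4 came close to the lower treated control library and was above the lower untreated one. The means were 3669 ± 76.5 and 3567 ± 504 CPM in untreated and treated SH2 cells (SD, n = 4 each) and 4449 ± 443 and 4798 ± 448 CPM in control cells (SD, n = 2 each). Without the library of set 4, treated SH2 cells had 3318 ± 87.6 CPM (SD, n = 3). The difference between treated and untreated SH2 cells was thus smaller than the spread of the treated group with all libraries in. That comparison of means leaves out the pairing by set. Within sets, the treated SH2 library was below the untreated one in sets 1 to 3 and above it in set 4.

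**Figure D1:**
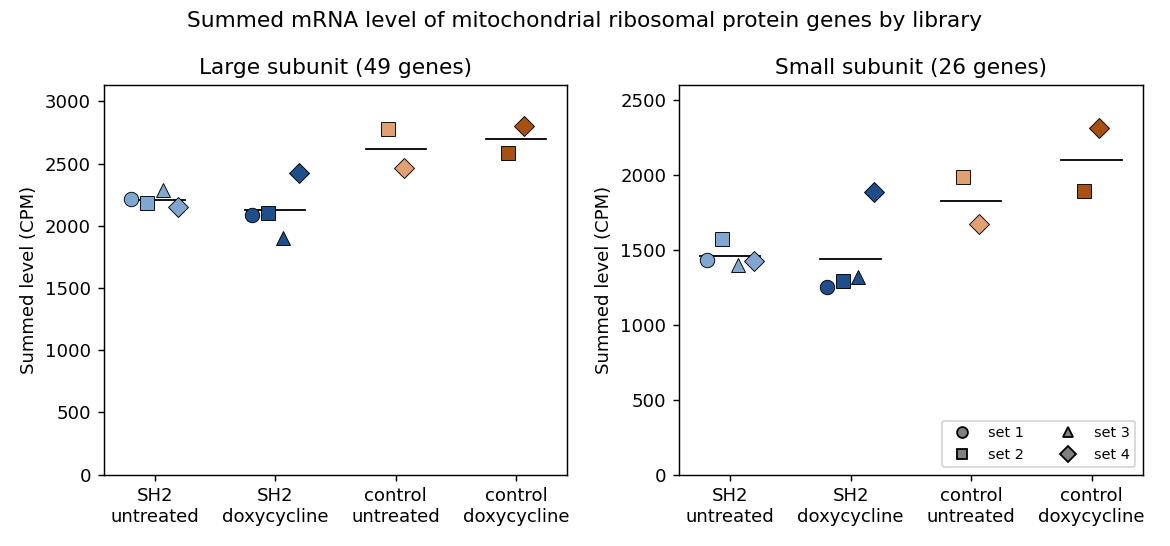
Summed level of the large-subunit (left) and small-subunit genes (right) in CPM, 1 point per library, with the set given by the symbol and the group mean by a line. SH2 libraries run from 1898 to 2426 CPM for the large subunit and control libraries from 2465 to 2802 CPM, and the treated SH2 library of set 4 is the highest SH2 point in both panels.

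Both subunits took part. Large-subunit genes summed to 2209 ± 60.0 and 2128 ± 219 CPM in untreated and treated SH2 cells (SD, n = 4 each) and to 2620 ± 219 and 2694 ± 153 CPM in control cells (SD, n = 2 each). Small-subunit genes summed to 1460 ± 78.2 and 1439 ± 302 CPM in SH2 and to 1828 ± 222 and 2104 ± 295 CPM in control cells. The treated SH2 library of set 4 stood at 1890 CPM for the small subunit, beside 1254, 1291 and 1322 CPM in sets 1 to 3. A handful of genes made up much of the gap between untreated SH2 and control cells, which was -780 CPM (SH2 minus control) over the 76 genes, 51 of them negative: MRPL41 for 11.4% of it, MRPL34 for 10.8%, MRPL51 for 10.3% and MRPS25 for 7.92%. With doxycycline the gap was -1230 CPM, and the same 4 genes took 6.90%, 10.5%, 7.76% and 8.71% of it. These are shares of the net gap, which members higher in SH2 cells made smaller. The negative members alone summed to -1026 CPM untreated and -1465 CPM with doxycycline, 132% and 119% of it.

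Across the tested members the mean level ran from 7.51 to 199 CPM with a median of 47.8 CPM. The highest were MRPS34 (199 CPM), a small-subunit protein found only in mitochondria, MRPS21 (165 CPM), of the bacterial S21 family, and MRPL33 (136 CPM), of the bacterial L33 family. The lowest were MRPL23 (7.51 CPM), at the exit tunnel, MRPL50 (8.52 CPM) and MRPS28 (10.5 CPM). Between untreated SH2 sets the median SD of the members was 0.27 on the log2 CPM scale, beside 0.37 for the 8001 genes within the same range of level. In treated SH2 cells the median SDs were 0.43 and 0.46. MRPL39, chosen here after its values were seen, varied most in both groups (SD 0.71 and 1.54), at 22.9, 6.82, 17.5 and 14.8 CPM untreated and 21.8, 19.4, 3.62 and 2.02 CPM treated in sets 1 to 4.

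Several members of both subunits were lower in SH2 than control cells after doxycycline. Of 71 members 10 were lower in treated SH2 than treated control cells and 0 were higher at an adjusted p under 0.05 (edgeR quasi-likelihood test, Benjamini-Hochberg over 11968 genes). That is 14.1% of the members, where 11.1% of all genes tested passed, 6.48% lower and 4.6% higher. The 10 were MRPL12, MRPL19, MRPL34, MRPL36 and MRPL41 of the large subunit and MRPS2, MRPS7, MRPS9, MRPS16 and MRPS25 of the small subunit. With the set as a block, which pairs libraries of the same set, MRPL41 no longer passed, MRPL51 and MRPS15 passed lower and MRPS31 higher, 12 in all. All 10 were lower within set 2 and within set 4. The median log2 fold change of the 71 members was -0.23, beside 0.04 for all genes tested, and 49 of 71 members were negative (69% against 47.6% of all genes).

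**Figure D2:**
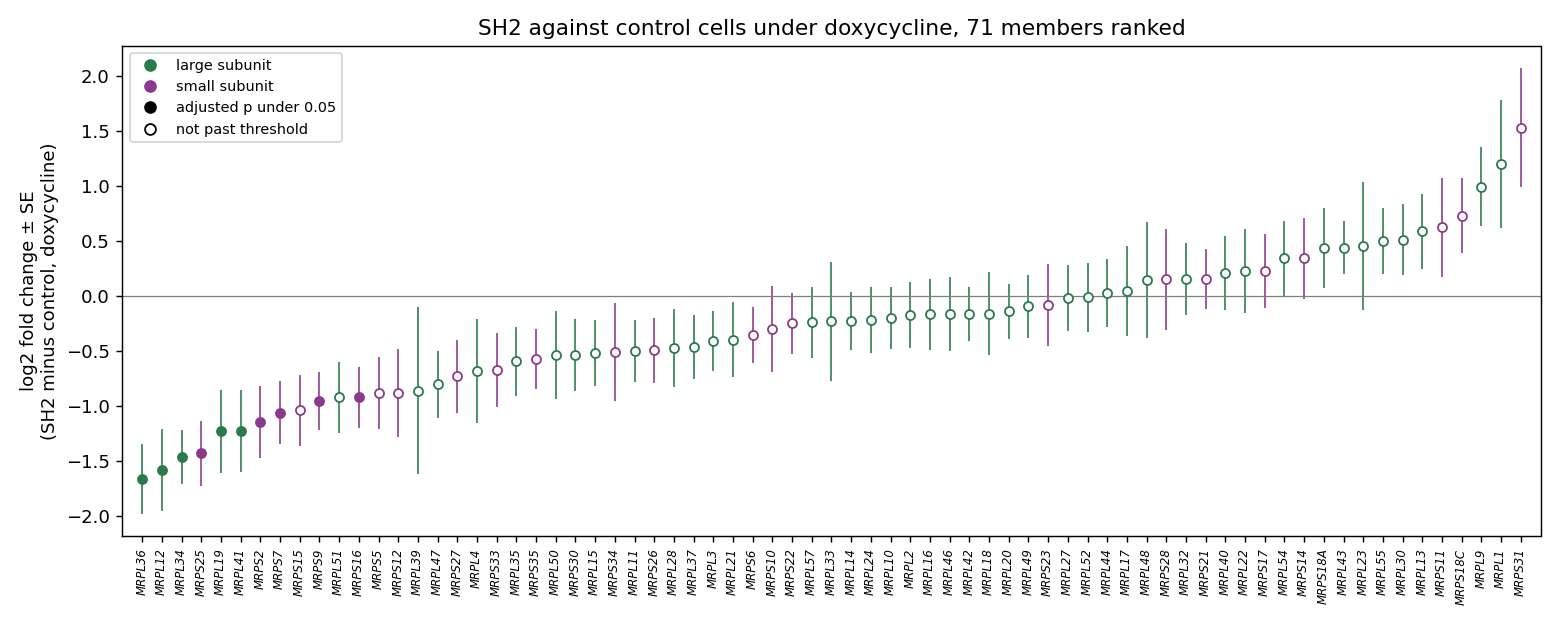
Log2 fold change of treated SH2 against treated control cells (points) with its SE (bars) for the 71 tested members, ranked; green is the large and purple the small subunit, and filled points passed an adjusted p of 0.05. The 10 filled points all lie below 0, from -1.67 for MRPL36 to -0.92 for MRPS16, and the highest point is MRPS31 at 1.53 without a call.

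MRPL36 and MRPL34, short proteins of the bacterial L36 and L34 families that lie buried in the RNA of the large subunit, passed in more alternative fits than the other 8 of the 10. MRPL36 (ENSG00000171421, chromosome 5, 1798386 to 1801366) stood at 20.1, 14.4, 14.2 and 25.6 CPM in treated SH2 cells of sets 1 to 4 and at 53.2 and 64.9 CPM in treated control cells. Untreated it had 18.4, 14.2, 26.2 and 17.8 CPM in SH2 and 56.9 and 51.3 CPM in control cells. Every SH2 library was thus below every control library. Its log2 fold change was -1.67 ± 0.32 with doxycycline (SE, adjusted p = 0.00374) and -1.50 ± 0.32 without it (adjusted p = 0.00913).

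MRPL34 (ENSG00000130312, chromosome 19, 17292609 to 17306843) had 84.6, 82.0, 63.9 and 62.7 CPM in treated SH2 cells of sets 1 to 4 and 177 and 229 CPM in treated control cells. Without doxycycline it had 67.2, 67, 61.2 and 76.9 CPM in SH2 and 171 and 134 CPM in control cells. Here too no SH2 library reached a control library. The log2 fold changes were -1.47 ± 0.25 (SE, adjusted p = 0.00164) with and -1.16 ± 0.25 (adjusted p = 0.00937) without doxycycline. In the treated comparison MRPL34 and MRPL36 passed in all 15 alternative fits, with an adjusted p of at most 0.0369 and 0.0467.

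MRPL41 (ENSG00000182154, chromosome 9, 137551199 to 137552555), a large-subunit protein with no bacterial relative, was the third member lower in both conditions. It had 49.4, 57.3, 42.8 and 102 CPM in treated SH2 cells and 112 and 184 CPM in treated control cells, so the library of set 4 came near the control range. Untreated it had 33.6, 59.0, 52.8 and 67.9 CPM against 168 and 116 CPM. The log2 fold changes were -1.23 ± 0.37 (SE, adjusted p = 0.046) treated and -1.41 ± 0.37 (adjusted p = 0.0306) untreated. With the set as a block the treated call was lost (adjusted p = 0.0507) and the untreated one kept (adjusted p = 0.0287). Of 15 alternatives 6 passed treated and 9 untreated.

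MRPS25 (ENSG00000131368, chromosome 3, 15042460 to 15065335), a mitochondrial protein of the small subunit, had 70, 64.2, 51.7 and 66.4 CPM in treated SH2 and 163 and 177 CPM in treated control cells. Untreated it had 97.5, 70.3, 44.0 and 56.4 CPM against 146 and 112 CPM, with no overlap in either condition. Its log2 fold change was -1.43 ± 0.29 with doxycycline (SE, adjusted p = 0.00597), past the threshold in 14 of 15 alternatives, and -0.94 ± 0.30 without it (adjusted p = 0.0716). With the set as a block the untreated difference passed too.

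MRPL12 (ENSG00000262814, chromosome 17, 81703357 to 81707526) is the stalk protein that draws translation factors to the large subunit. It had 30.6, 26.6, 15.8 and 27.6 CPM in treated SH2 and 47.7 and 103 CPM in treated control cells. The treated control libraries were further apart from each other than the SH2 libraries were. The log2 fold change was -1.58 ± 0.37 (SE, adjusted p = 0.0127), and without the treated control library of set 4 it was -0.94 (adjusted p = 0.288). MRPL12 also had a lower level in treated than untreated SH2 cells, described below.

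Further small-subunit proteins of bacterial families were lower in treated SH2 than treated control cells: MRPS2, MRPS7, MRPS9 and MRPS16. MRPS7 (ENSG00000125445, chromosome 17, 75261674 to 75266373), of the head of the small subunit, had 66.6, 41.0, 40.5 and 37.4 CPM in treated SH2 and 101 and 92.8 CPM in treated control cells (log2 -1.06 ± 0.29, SE, adjusted p = 0.0297). MRPS2 had 65.8, 61.5, 62.3 and 125 CPM against 137 and 212 CPM (-1.15 ± 0.33, adjusted p = 0.0372). In MRPS2 the treated SH2 library of set 4 came close to the lower control library, while the other 3 lay far below.

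MRPS16, mutated in a severe neonatal disorder of respiration, had 63.3, 58.5, 38.9 and 43.8 CPM in treated SH2 and 103 and 90.5 CPM in treated control cells (log2 -0.92 ± 0.28, SE, adjusted p = 0.0475). MRPS9 had 31.4, 26.2, 25 and 20.2 CPM against 54.2 and 45.5 CPM (-0.96 ± 0.26, adjusted p = 0.0303). MRPL19, a low-level member of the bacterial L19 family, had 10.1, 12.5, 9.88 and 5.73 CPM against 27.2 and 17.6 CPM (-1.23 ± 0.38, adjusted p = 0.0499). None of these groups overlapped. In untreated cells MRPL19 and MRPS9 did overlap, with log2 fold changes of -0.31 ± 0.39 and -0.13 ± 0.27.

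**Figure D3:**
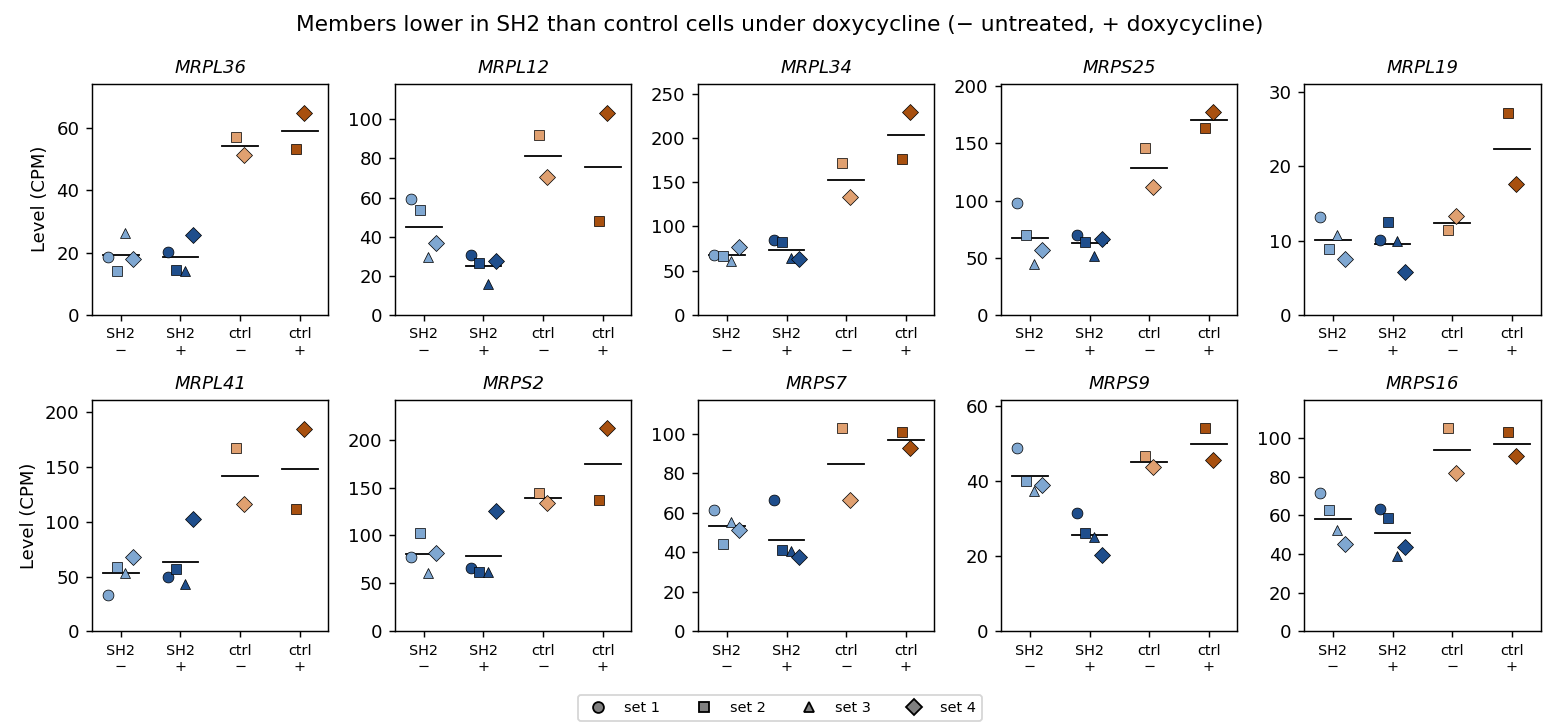
Level in CPM (y axis, from 0) of the 10 members lower in treated SH2 than treated control cells, 1 point per library with the set as symbol and the group mean as a line. In MRPL34, MRPL36 and MRPS25 all SH2 points lie below all control points in both conditions, while MRPS9 separates from control only with doxycycline.

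The count of 10 rested on single libraries. It was 4 without the treated SH2 library of set 2 or of set 3 or the treated control library of set 2, 2 without that of set 4, and 16 without the treated SH2 library of set 4. Sets 2 and 4 alone gave 3 (MRPL34, MRPL36 and MRPS25), and a fit of the treated groups alone gave 4. The T cell markers were high in control set 2 only, and whether this bears on any of these calls was not tested.

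Before doxycycline the direction was the same and fewer members passed. MRPL34, MRPL36 and MRPL41 were lower in untreated SH2 than untreated control cells and 0 members were higher, which is 4.23% of the members, where 7.84% of all genes passed, 4.9% lower and 2.94% higher. That share is near the background. The median over members was -0.13, beside 0.03 for all genes, and 50 of 71 were negative (70.4% against 48.3%). The lean was stronger in set 2, at a median of -0.26 with 52 of 71 lower (49.8% of all genes). In set 4 it was -0.04 with 39 lower (49.4% of all genes). Without single libraries the median of the fit ran from -0.21 to -0.07. With the set as a block 7 members passed, 4 lower (the same 3 and MRPS25) and 3 higher (MRPL1, MRPS18C and MRPS31). No member passed (0) when the set 2 library of untreated control cells was left out, and 1 (MRPL34) when the set 4 library was. MRPS33, a small-subunit protein found only in mitochondria, had 49.2, 41.5, 26.2 and 44.7 CPM in SH2 and 100 and 74.8 CPM in control cells (log2 -1.11 ± 0.33, SE, adjusted p = 0.0575). Its groups did not overlap.

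Where the groups of a member did not overlap, it was more often lower than higher in SH2 cells. In untreated cells 20 members were lower in every SH2 library than in every control library (28.2%, against 17.4% of all genes) and 8 were higher (11.3% against 15.5%). In treated cells 21 were lower (29.6% against 16.6%) and 6 higher (8.45% against 15.4%). In both conditions 12 members were lower without overlap and 4 were higher: MRPL9, MRPL13, MRPS18C and MRPS31.

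The 4 members that were higher, and MRPL1, were singled out after their values were seen. MRPS31, of the small subunit, had 17.6, 31.7, 56.7 and 40.7 CPM in untreated SH2 and 7.59 and 13.4 CPM in untreated control cells (log2 1.79 ± 0.55, SE, adjusted p = 0.066). With doxycycline it had 19.7, 19.7, 48.4 and 52.5 CPM against 12.8 and 11.5 CPM (1.53 ± 0.54, adjusted p = 0.0869). It has 4 annotated pseudogene copies. MRPS21 has 8, MRPS17 4, MRPS16, MRPS33 and MRPL50 3 each, MRPS18C, MRPS35 and MRPL49 2 each, and MRPL9, MRPL20, MRPL30, MRPL51 and MRPS15 1 each, so the reads of these members are uncertain where copies are near-identical. MRPS18C, of the bacterial S18 family, had 50, 56.6, 94.9 and 55.8 CPM against 30.4 and 30.4 CPM untreated (1.08 ± 0.35, adjusted p = 0.0777). MRPL9 had 45.1, 49.2, 60.6 and 70 CPM against 28.9 and 24.9 CPM untreated (1.06 ± 0.36, adjusted p = 0.0956). MRPL1, of the mobile arm by which spent tRNA leaves, had 17.6, 19.6, 15.9 and 22.3 CPM against 2.37 and 11.6 CPM untreated (1.40 ± 0.58, adjusted p = 0.179). None passed without the block.

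Large and small subunits leaned the same way. In treated SH2 against treated control cells 5 of 47 large-subunit and 5 of 24 small-subunit members were lower. That is 10.6% and 20.8% beside 6.48% of all genes, with medians of -0.17 and -0.50. In untreated SH2 against untreated control cells the medians were -0.10 and -0.30. Of members with a bacterial family 8 of 46 were lower in the treated comparison, and of those found only in mitochondria 2 of 25. That is 17.4% and 8%, with medians of -0.22 and -0.25. Whether these classes differ was not tested.

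No member passed the threshold between treated and untreated SH2 cells, a comparison in which the shRNA, doxycycline and the second sort cannot be told apart. Of 71 members 0 passed (edgeR, where 0.0167% of all genes passed, all lower), 0 passed with DESeq2 and 0 with limma, and 5 had an unadjusted p under 0.05, all lower (7.04%, against 4.88% of all genes, 2.66% lower and 2.22% higher). The median log2 fold change was -0.10, beside 0.03 for all genes, and 45 of 71 were negative (63.4% against 46.4%). In simulated counts with 200 genes changed, this comparison recovered 10% of genes changed 2-fold and 71% of those changed 4-fold (11611 genes). The changed genes were drawn from all levels, so these shares need not hold for the members.

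The 5 members were MRPS9, MRPL12, MRPL11, MRPL10 and MRPL47. MRPL10, MRPL11 and MRPL12 are neighbours on the ribosome: they form the stalk and its base, where translation factors dock. MRPS9 reaches towards the tRNA in the small subunit, and MRPL47 lies near the exit tunnel. The 5 were picked by their unadjusted p-values in these data. Whether their places on the ribosome bear on these differences was not tested.

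MRPS9 (ENSG00000135972, chromosome 2, 105037983 to 105099960) had 48.8, 40.0, 37.2 and 38.9 CPM in untreated and 31.4, 26.2, 25 and 20.2 CPM in treated SH2 cells of sets 1 to 4. All treated libraries were below all untreated ones, and the within-set log2 differences were -0.62, -0.60, -0.56 and -0.92. In control cells it had 46.5 and 43.7 CPM untreated and 54.2 and 45.5 CPM treated, a slight difference the other way in both sets. The log2 fold change in SH2 was -0.68 ± 0.22 (SE, unadjusted p = 0.00807, adjusted p = 0.983). With the set as a block the adjusted p was 0.333.

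MRPL12 had 59.4, 53.4, 29.8 and 36.8 CPM in untreated and 30.6, 26.6, 15.8 and 27.6 CPM in treated SH2 cells. It was lower in 4 of 4 sets (log2 -0.94, -0.99, -0.88 and -0.41), although the groups overlapped because the untreated libraries of sets 3 and 4 were low. The log2 fold change was -0.83 ± 0.32 (SE, adjusted p = 0.983). In control cells the difference was -0.94 in set 2 and 0.54 in set 4, so set 2 moved as in SH2 cells.

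MRPL11 (ENSG00000174547, chromosome 11, 66435075 to 66466738) had 32.4, 35.9, 25.6 and 32.9 CPM untreated and 20.5, 25.4, 22.4 and 15.8 CPM treated. MRPL10 (ENSG00000159111, chromosome 17, 47823272 to 47831534) had 46.7, 40.9, 37.9 and 46.2 CPM untreated and 33.9, 27.7, 21.4 and 34.7 CPM treated. MRPL47 (ENSG00000136522, chromosome 3, 179588285 to 179604654) had 22.9, 20.8, 31.1 and 19.9 CPM untreated and 15.1, 16.3, 13.5 and 19.2 CPM treated. In these 3 members the SH2 groups did not overlap, by a narrow margin, and the fold changes were -0.59 ± 0.24, -0.54 ± 0.23 and -0.56 ± 0.25 (SE), each at an adjusted p of 0.983. With MRPS9 this made 4 members lower without overlap (5.63%, against 2.03% of all genes) and 0 higher (against 1.38%).

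Over all members, the sets did not move together. Within SH2 sets 1, 2 and 3 the median log2 difference was -0.13, -0.13 and -0.25, with 44, 46 and 49 of 71 members lower. In set 4 it was 0.12 with 33 lower. In control cells the medians were -0.12 in set 2 (46 lower) and 0.11 in set 4 (29 lower). For all genes the median lay between -0.01 and 0.01 in each of these sets. So set 2 was negative and set 4 positive in both kinds of cells. In SH2 cells 13 members were lower in 4 of 4 sets (18.3%, against 10.1% of all genes): MRPL1, MRPL10, MRPL11, MRPL12, MRPL20, MRPL46, MRPL47, MRPL49, MRPS9, MRPS15, MRPS16, MRPS18C and MRPS35. MRPL14 alone was higher in all 4 (1.41%, against 10.7%).

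**Figure D4:**
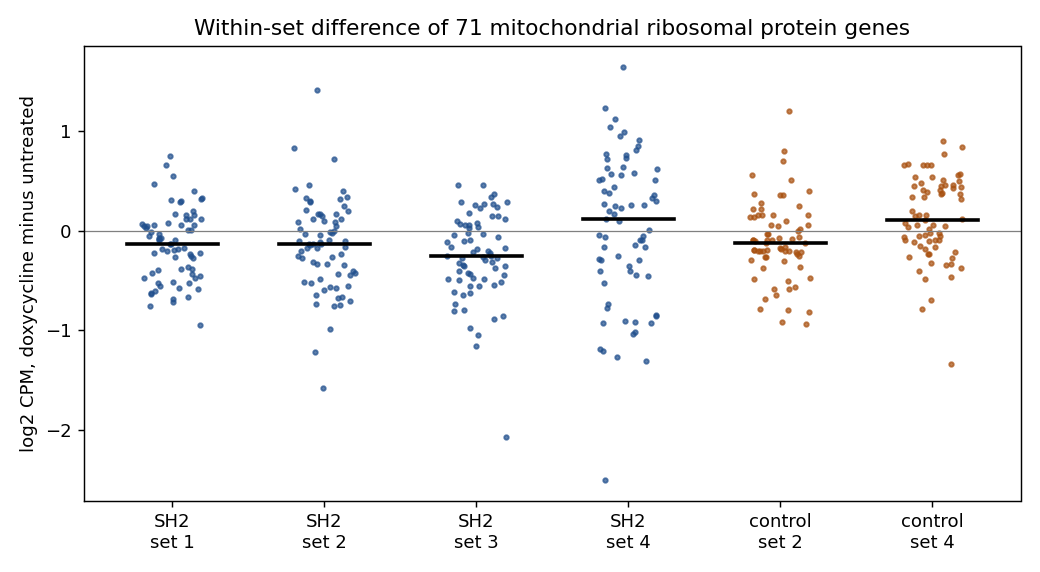
Log2 CPM of treated minus untreated libraries of the same set (y axis) for the 71 tested members, 1 point each, in SH2 sets 1 to 4 (blue) and control sets 2 and 4 (brown), with the median as a line. The medians are -0.13, -0.13, -0.25 and 0.12 in SH2 cells and -0.12 and 0.11 in control cells, and the points spread widely around 0 in every set.

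No member passed between treated and untreated control cells. By edgeR 0 of 71 passed (0% of all genes), 0 had an unadjusted p under 0.05 (0.685% of all genes), and DESeq2 and limma called 0. The median was 0.03, with 35 members negative (49.3%, against 48% of all genes). MRPL19 had 11.4 and 13.4 CPM untreated and 27.2 and 17.6 CPM treated in sets 2 and 4 (log2 0.85 ± 0.45, SE, adjusted p = 1). MRPS17 (-0.57 ± 0.38), MRPL30 (-0.49 ± 0.37) and MRPL34 (0.41 ± 0.29) followed, and MRPL30 was 0.056 without the untreated library of set 2.

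The next comparison set the response of SH2 cells to doxycycline against that of control cells. In this interaction 0 of 71 passed by edgeR (0% of all genes), 0 by DESeq2 and 0 by limma, and 1 had an unadjusted p under 0.05 (1.41%, against 0.969% of all genes). That was MRPS9 at -0.82 ± 0.38 (SE, unadjusted p = 0.0471, adjusted p = 1). MRPL19 (-0.93 ± 0.56), MRPL30 (0.62 ± 0.45) and MRPL11 (-0.56 ± 0.41) had the next smallest p-values. The median was -0.14 over members, 45 of 71 negative (63.4%, against 49.2% of all genes), and 0.01 over all genes. With sets 2 and 4 alone the members' median was -0.013, and without the untreated SH2 library of set 3 it was -0.017.

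Other genes of mitochondrial translation showed few calls. Of all genes tested 0.0167% passed in treated against untreated SH2 cells, with 46.4% negative. In treated SH2 against treated control cells 11.1% passed, with 47.6% negative. Of 7 ribosomal proteins with other symbols 0 passed in any comparison, with medians of -0.14 in SH2 cells with doxycycline and -0.38 in treated SH2 against control cells. Among them DAP3, a small-subunit protein that binds GTP, had -0.53 ± 0.20 with doxycycline (SE, unadjusted p = 0.0181, adjusted p = 0.983), followed by ICT1 (-0.38 ± 0.26) and CHCHD1 (-0.17 ± 0.21). The 28 tested assembly and ribosomal RNA factors had medians of -0.13 and -0.31 in these comparisons, with 18 and 19 negative and 0 called. RPUSD4 (-0.57 ± 0.22) and TRUB2 (-0.71 ± 0.32), which modify mitochondrial RNA, and the helicase DDX28 (-0.67 ± 0.28) had the smallest p-values with doxycycline.

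Of 14 translation factors 1 passed, MTIF3, an initiation factor, higher in treated SH2 than control cells (adjusted p = 0.0369). With doxycycline in SH2 cells the release factor MTRF1L had -0.98 ± 0.30 (SE, adjusted p = 0.953), the initiation factor MTIF3 0.57 ± 0.30 and the elongation factor GFM2 -0.44 ± 0.29, while the median of the list was -0.05. The 12 transcription and RNA processing genes had a median of -0.30 with 9 negative and 0 called, led by TRMT10C (-0.55 ± 0.30), TFB2M (-0.71 ± 0.43) and the helicase gene C10orf2 (-0.41 ± 0.26). The 13 mRNAs that the mitochondrial ribosome translates lay the other way, at a median of 0.32 with 9 of 13 positive and 0 called. In control cells with doxycycline 9 of 13 were also positive, at a median of 0.07, with 0 called. MT-CO1, a cytochrome oxidase subunit, had 1034, 848, 1020 and 1148 CPM in untreated and 1437, 1852, 2067 and 5738 CPM in treated SH2 cells. Its groups did not overlap, the library of set 4 stood far above the rest, and the log2 fold change was 1.45 ± 0.39 (SE, adjusted p = 0.726). In control cells MT-CO1 differed by 0.61 and 0.41 in sets 2 and 4 (0.49 ± 0.54, SE, adjusted p = 1). MT-ND5 (1.12 ± 0.35) and MT-ND4L (0.96 ± 0.36), of complex I, followed without passing.

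Promoters of the members are shown because the genes lie on 21 chromosomes, and a shared sequence at their starts is a feature that the choice by name did not use. RefSeq windows (GRCh38.p14) of 250 bases before to 50 after the start were found for 67 of 76 members and searched on both strands. The ETS motif CCGGAAG was in 40.3% of member promoters and 10.7% of all 27305 promoters. The YY1 motif was in 19.4% and 1.55%, and the NRF1 motif in 11.9% and 6.28%. The E-box CACGTG, which MYC can bind, was in 8.96% and 7.43%, and the TATA box TATAAA in 2.99% and 12%. Of the 13 members called in any comparison or without overlap between SH2 groups, 12 had a window and 4 held any of these motifs (33.3%), beside 45 of all 67 member promoters (67.2%) and 33.1% of all promoters. The 4 are MRPL36, MRPL47, MRPS9 and MRPS16, and stretches from 3 of them are printed here with the motif in capitals, positions being counted from the first transcribed base as 0.
MRPL36, NRF1 motif on the other strand, position -110, chr5:1799928-1799957, minus strand: tcgcactccaGCGCCTGCGCactcgctgct
MRPL36, E-box, position -56, chr5:1799876-1799905, minus strand: acgtgggcacgcCACGTGaccccccccccc
MRPL36, YY1 motif on the other strand, position -38, chr5:1799855-1799884, minus strand: cccccccccGCCGCCATCTTccttcctggc
MRPS9, NRF1 motif on the other strand, position -40, chr2:105038019-105038048, plus strand: cgcgccattaGCGCCTGCGCcgtctctagg
MRPS9, YY1 motif, position 21, chr2:105038081-105038110, plus strand: cccacagctAACATGGCGGCgccctgtgtg
MRPL47, ETS motif, position -39, chr3:179604659-179604688, minus strand: ggcttgagacgCCGGAAGtgacgctatcgt

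MRPL36, the member with the greatest fold between treated SH2 and control cells, thus held 3 of the 5 motifs in its window, and MRPS9 held the NRF1 and YY1 motifs. MRPL34, MRPL41 and MRPS25 held none, which says only that these letters are not there.

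**Figure D5:**
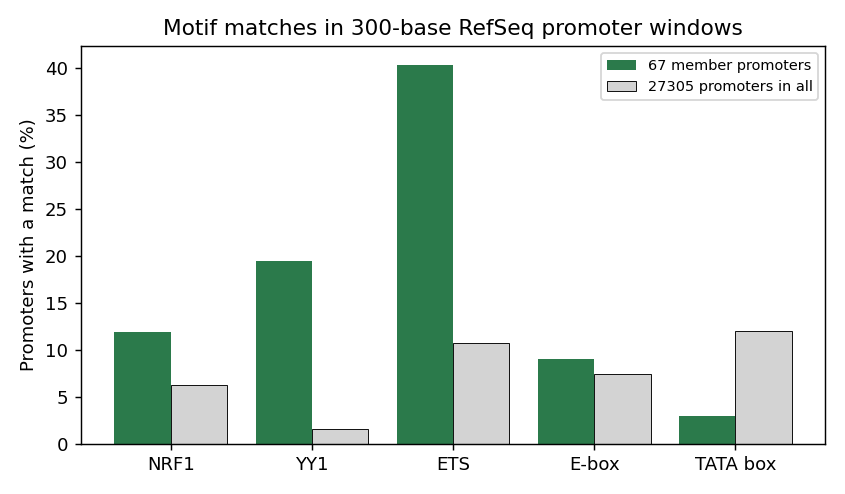
Share of promoters with at least 1 match to each motif (y axis, percent) in the 67 member promoters (green) and in all 27305 promoters (grey). The ETS bar is 40.3% against 10.7% and the YY1 bar 19.4% against 1.55%, while the TATA bar is lower for members, at 2.99% against 12%.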

How the data were processed

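RNA was measured in 12 libraries made with a kit that reads transcript ends, per the labels' protocols. The authors deposited whole read counts per gene and a normalized signal table. The submitters' processing notes name FastQC, STAR, HTSeq, DESeq2, hg38 and GRCh38; versions, annotation and the strand setting of the counting were not given in the sources used here. Count tables held 64253 gene IDs; reads without a unique alignment took 42.2% to 63.8% per library. In the deposited signal table, 100% of values were whole reads times a constant (tolerance 0.01), equal to the counts; edgeR on these recovered reads, an alternative added after the data were seen, called 0 members in SH2 cells with doxycycline.

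The gene counts went into edgeR 4.0.16 (R 4.3.3): filterByExpr (minimum count 10), TMM, all 12 libraries with 1 term per group, robust quasi-likelihood tests, Benjamini-Hochberg over 11968 genes, threshold 0.05. Of the members, 71 of 76 passed the filter. SE is the log2 fold change divided by the root of F. Alternatives used DESeq2 1.42.0, limma 3.58.1 and other sample choices. In simulated counts, treated SH2 against control recovered 3% of 2-fold and 33% of 4-fold changes (11636 genes). Each simulation changed 200 genes drawn from all levels, left the rest alike and held no difference between sets. In the real comparison 11.1% of genes passed, which makes the adjusted threshold less strict, so these shares need not hold there. Positions are from GENCODE 29 on GRCh38. No replicate pair agreed within sampling noise (chi-square per degree of freedom 9.29 to 54.5); replicates are separate sorts per the design text.

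Sample titles carry the set number. Same-set deviations from the group mean correlated at 0.182 to 0.65 in SH2 pairs (4 of 4 above 0.1), and each set was its own sort, so the set numbers pair the samples. Control pairs, 2 only, gave 0.493, which is a single value, since with 2 libraries per group both pairs must give the same correlation. The p-values and SEs given are from the fit without a set term unless the block is named.

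Members and lists were chosen with earlier results of these data known. Named were members past the threshold in any comparison, the 4 smallest p-values per comparison, the 3 highest and 3 lowest levels, and members whose SH2 groups did not overlap (22 in all); MRPL1, MRPL9, MRPL13, MRPL14, MRPL20, MRPL39, MRPL46, MRPL49, MRPL51, MRPS15, MRPS18C, MRPS31 and MRPS35 fall outside this rule and were named after their values were seen.

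Without a strand setting, reads of overlapping genes on the other strand cannot be told apart: of the members named, this touches MRPL1, MRPL9, MRPL11, MRPL13, MRPL14, MRPL19, MRPL20, MRPL23, MRPL33, MRPL34, MRPL47, MRPL49, MRPL51, MRPS2, MRPS7, MRPS9, MRPS16, MRPS18A, MRPS18C, MRPS25, MRPS28 and MRPS31. On the same strand MRPL9, MRPL12, MRPL19, MRPL20, MRPL30, MRPL33, MRPL46, MRPL53, MRPS16, MRPS17, MRPS24, MRPS28 and MRPS35 overlap another annotated gene.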

Additional observations from a re-analysis of the deposited data

Results flagged for a closer look

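Single samples stood far from the other 3 of their group in 5 cases, where chance marks about 1 group in 20. The rule was run on 3 summed levels and 22 named members in each SH2 group, so some flags arise by chance. Nor are the flags separate, since MRPS2 and MRPS34 are part of the sums. The treated SH2 library of set 4 was high in the summed level of all members (4316 CPM beside 3220 to 3390), in that of the small subunit (1890 CPM beside 1254 to 1322), in MRPS2 (125 CPM) and in MRPS34 (397 CPM, beside 121, 131 and 121). The treated SH2 library of set 1 was high in MRPS7 (66.6 CPM beside 37.4 to 41.0).

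The differences of MRPS9 had opposite signs in the 2 kinds of cells, none past the threshold: it was lower with doxycycline in 4 of 4 SH2 sets, at a mean log2 difference of -0.68, and higher in both control sets (0.22 and 0.05). The interaction test of this difference gave an unadjusted p of 0.0471 and an adjusted p of 1. MRPS18C, which the naming rule did not pick, had the same signs, at -0.25, -0.13, -0.21 and -0.16 in SH2 and 0.16 and 0.16 in control sets, with an interaction of -0.35 ± 0.47 (SE, edgeR adjusted p = 1).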

How the results depend on the processing

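In both comparisons of doxycycline with no doxycycline and in the interaction, 0 members were called under every alternative run. For untreated SH2 against control cells, 3 members called became 8 with the DESeq2 Wald test, 7 with the set as a replicate block, 7 with the compared groups alone and 1 with sets 2 and 4 alone, and 0 to 4 without single libraries. For treated cells, 10 became 4 with the compared groups alone and 3 with sets 2 and 4 alone, and 2 to 16 without single libraries; with the set as a block 12 passed. There MRPL41 missed the threshold with the block (adjusted p = 0.0507), and MRPL51, MRPS15 and, higher, MRPS31 passed; untreated, MRPS25 passed lower and MRPL1, MRPS18C and MRPS31 higher. Beyond these the block changed no call of a member. The median of the interaction was -0.013 with sets 2 and 4 alone, and -0.22 to -0.017 without single libraries. Of 27 results for named members 26 kept their direction throughout; MRPL30 in control cells ran from -0.89 to 0.056 without single libraries. Where 1 control library was left out, the lone library is assumed to vary like the other groups. The causes were not tested. Depth limits members at low level most: MRPL19 had 416 reads over 12 libraries.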
